A study of Homo sapiens with 3 samples.

Results

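The arrays of HCT116 cells treated with siRNA #8 and with siRNA #7 were compared directly, without the control array in the ratio or in the choice of probes, to describe what differed between a pair of siRNAs for the same target RNA. The comparison uses 2 of the 3 arrays. A probe was kept where it was well above background on both siRNA arrays, which held for 18247 of 50593 gene probes. These probes represented 12079 named genes, of which 2739 had 2 or more kept probes, and 600 kept probes were printed on 10 spots of each array. HCT116, a human cell line established from a colon cancer, received 10 nM of 1 of 3 siRNAs (control, #7 or #8). After 48 h, RNA was taken, and a one-color array was hybridized with 400 ng of it per culture. Both siRNAs target *HOXA5* short RNA, which the study describes as a transcript of the *HOXA6*-*HOXA5* locus that skips exon 1 of *HOXA5*. In that description they lie across the junction of its own first exon, upstream of *HOXA6*, with its last exon. Each condition has 1 array, so no difference has a replicate check and no p-value is given. What the siRNAs did and how single cultures or hybridizations vary cannot be told apart.

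A small interfering RNA is loaded into an Argonaute protein, which keeps 1 strand as a guide and cuts transcripts that pair with it along its length. The guide can also lower transcripts that pair only with its seed, the bases near its 5′ end, in the manner of a microRNA. Different siRNAs for the same target therefore share the intended target and can differ in every other transcript they bind.

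The siRNA sequences are shown because they say how far the reagents differ. They are printed 5′ to 3′ as the study lists them, with the run of 17 bases that both hold in capitals.

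siRNA #7: gagaAACUGAAAGACAACAUA

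siRNA #8: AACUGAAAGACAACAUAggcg

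Both are 21 bases long, and siRNA #8 is siRNA #7 moved by 4 bases along the target. The listed strand of siRNA #7 has 7 G or C bases and that of siRNA #8 has 9. The list does not say which strand becomes the guide. If it is the reverse complement of the listed strand, the guides read as follows, with bases 2 to 8 (the seed) in capitals.

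siRNA #7, reverse complement: uAUGUUGUcuuucaguuucuc

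siRNA #8, reverse complement: cGCCUAUGuugucuuucaguu

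These seeds are different sequences, AUGUUGU and GCCUAUG. Of 2370 human mature microRNAs in RefSeq, 0 carry the first seed and 0 the second at the same bases. Sites for these seeds in transcripts were not analysed here.

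The 3 arrays were hybridized on 1 slide and scanned together. Levels are given as relative intensity, the intensity of a probe divided by the 75th percentile of all gene probes on that array, which stood at 52.8, 42.1 and 42.8 on the control, siRNA #7 and siRNA #8 arrays. Ratios are the log2 level with siRNA #8 minus that with siRNA #7. The error beside a ratio (SD) combines both arrays and is taken from the spot-to-spot SD of probes printed 10 times at a like signal. The squared SD of each array is divided by the number of spots of the probe. For a probe on 10 spots the error of the ratio is therefore a standard error over spots. Pooled over probes printed 10 times, the spot-to-spot SD itself was 0.15 on the log2 scale for siRNA #7 and 0.17 for siRNA #8. This error covers spotting and scanning and leaves out variation between cultures. The number of arrays limits the precision. Of 10 colon epithelial markers 8 were measured (all but *VIL1* and *LGALS4*), with a summed relative intensity of 1278 with control, 1447 with siRNA #7 and 1345 with siRNA #8. *COL1A1* was the measured member of 8 fibroblast markers, *VWF* that of 4 endothelial markers, and none of 6 blood cell markers was measured. *COL1A1* and *VWF* had relative intensities below 1 on all arrays.

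The *HOXA5* locus was read by 1 probe, which is assigned to the gene by its accession. Whether it detects the *HOXA5* short RNA was not tested, so it is no measure of the intended target. It had relative intensities of 1.61 with control, 1.25 with siRNA #7 and 1.37 with siRNA #8. Between the siRNAs the log2 ratio was 0.13 with an SD of 0.23, so the difference lay within the spot error. Most kept probes were close on both arrays. The median log2 ratio of all kept probes was -0.0085, the SD over probes was 0.51, and 79.7% of the probes lay within 1.5-fold. Past 2-fold, 440 probes were higher with siRNA #8 (2.41% of those kept) and 577 were lower (3.16%). With each gene read from its brightest probe, 275 genes passed 2-fold as higher (2.28%) and 405 as lower (3.35%). The share of probes past 2-fold was 7.21% among the dimmest and 2.87% among the brightest when the probes were split into 4 groups by mean signal.

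**Figure D1:**
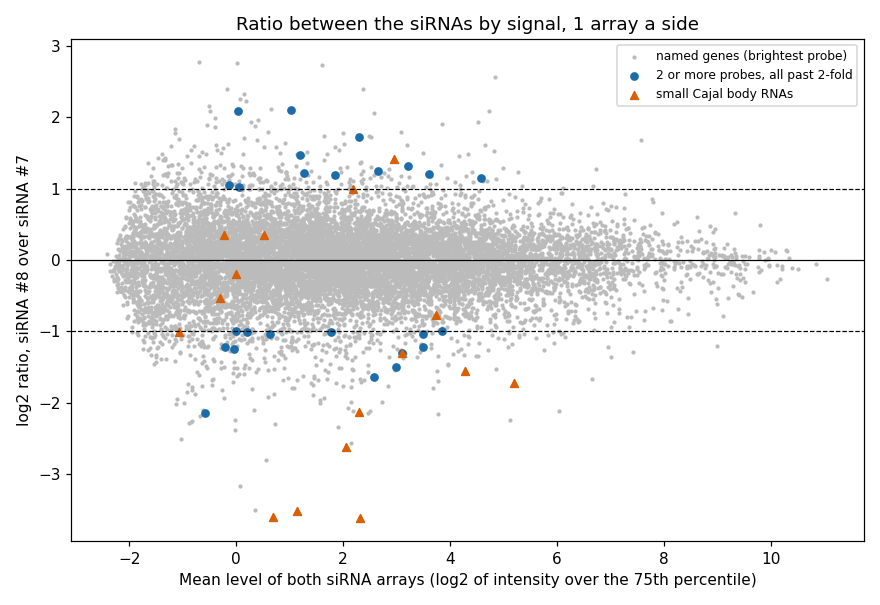
Log2 ratio of siRNA #8 over siRNA #7 (vertical axis) against the mean log2 level of both siRNA arrays (horizontal axis), with 1 gray point for each of 12079 named genes and dashed lines at 2-fold. Genes whose 2 or more probes all passed 2-fold (blue) lie on both sides, and the small Cajal body RNAs (orange triangles) reach the lowest ratios, near -3.6.

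The control array places these differences. Among the probes at least 2-fold higher with siRNA #8, 437 were also well above background with control siRNA. The control level lay between the siRNA levels for 316 of them, above both for 81 and below both for 40. The siRNA #7 array was the farther one from control for 281 of these probes and the siRNA #8 array for 156. Among the probes at least 2-fold lower with siRNA #8, 574 were well above background with control siRNA, and here the siRNA #8 array was the farther one for 416 and the siRNA #7 array for 158. Both sets thus held more probes that were low on 1 siRNA array than probes that were high on the other. Both siRNA arrays share this 1 control array.

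Genes with several probes give a check on single spots, though not on the culture. All of 2 or more probes were at least 2-fold higher with siRNA #8 for 12 genes (0.438% of 2739) and at least 2-fold lower for 13 (0.475%). Where the brightest probe of such a gene was at least 2-fold higher, the other probes lay on the same side in 37 of 51 genes and also passed 2-fold in 12. Where it was at least 2-fold lower, they lay on the same side in 45 of 60 genes and passed 2-fold in 13. With normexp background correction, 0 of the 12 genes and 2 of the 13 kept all probes past 2-fold, the latter being *TP53I3* and *SCARNA16*. The offset of 50 that it adds exceeds the 75th percentile intensity of both siRNA arrays (42.1 and 42.8). It therefore shrinks the ratios of dim probes by construction. Of all 93 genes that the naming rule puts past 2-fold on the probe read, 55 lay below 2-fold with normexp.

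Several of the genes higher with siRNA #8 were low on the siRNA #7 array. *PLA2G12A*, a secreted phospholipase A2, had relative intensities of 7.37 with control, 2.70 with siRNA #7 and 8.90 with siRNA #8 on its brighter probe, a log2 ratio of 1.72 (SD 0.16), and its other probe gave 2.13 (SD 0.31). The siRNA #7 array was the low one on both probes. *ARPP19*, whose phosphorylated form inhibits protein phosphatase 2A at entry into mitosis, had 17.5, 8.03 and 18.4 in the same order, a log2 ratio of 1.2 (SD 0.15), with 1.15 (SD 0.17) on its other probe. *RAC2*, a small GTPase best known from blood cells, had 35.7, 16.0 and 35.6, a log2 ratio of 1.15 (SD 0.15), with 1.07 (SD 0.17) on its other probe. For these genes the siRNA #8 and control arrays lay close together. *TMEM25*, a membrane protein gene, had 13.8, 5.83 and 14.6 on its brighter probe, a log2 ratio of 1.32 (SD 0.15). Its dim probe had 0.475, 0.353 and 0.760, a log2 ratio of 1.11 (SD 0.38), and there siRNA #8 was the farther array from control. *CRYZ*, which encodes a quinone reductase, had 4.16, 2.36 and 5.40 on its brighter probe, a log2 ratio of 1.19 (SD 0.17).

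Other genes of this set were high on the siRNA #8 array. *GPER1*, a G protein-coupled receptor for estrogen, had relative intensities of 1.196 with control, 0.984 with siRNA #7 and 4.23 with siRNA #8, a log2 ratio of 2.10 (SD 0.20), and its other probe gave 1.65 (SD 0.31). *KDM5B*, a demethylase of lysine 4 of histone H3, had 3.47, 4.10 and 9.74, a log2 ratio of 1.25 (SD 0.16), and its other probe gave 1.22 (SD 0.20). *C14orf132* had 0.726, 0.495 and 2.11 on its brighter probe, a log2 ratio of 2.09 (SD 0.31), and its other probe gave 2.10. In these 3 genes both probes put siRNA #8 above both other arrays. *PREPL*, a serine hydrolase, had a log2 ratio of 1.48 (SD 0.20) and 1.26 (SD 0.20) on its probes. *UTRN*, the dystrophin relative utrophin, had 1.22 (SD 0.20) and, on a dim probe, 1.14 (SD 0.38). For *PREPL* and *UTRN* the control level lay between the siRNA levels on both probes.

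Some of the genes lower with siRNA #8 were low on the siRNA #8 array. *ESCO2*, an acetyltransferase that acts on cohesin in S phase, had relative intensities of 1.74 with control, 1.40 with siRNA #7 and 0.317 with siRNA #8, a log2 ratio of -2.15 (SD 0.32), and its other probe gave -2.37 (SD 0.32). Both *ESCO2* probes were dim, and with normexp background correction these ratios shrank to -0.67 and -0.61. *SKA2*, a subunit of a complex at the outer kinetochore, had 3.01, 2.21 and 1.08, a log2 ratio of -1.04 (SD 0.20), and its other probe gave -1.55 (SD 0.32). *FMR1*, an RNA-binding protein of translation control, had 1.40, 1.32 and 0.568, a log2 ratio of -1.22 (SD 0.32), and its other probe gave -1.57 (SD 0.38). *TNFRSF6B*, a decoy receptor for Fas ligand, had ratios of -1.005 (SD 0.17) and -1.02 (SD 0.38). The histone gene *H3C10* had 14.1, 16.1 and 7.82 on its brighter probe, a log2 ratio of -1.04 (SD 0.15), and its dim probe gave -1.03 (SD 0.32). On the dim *H3C10* probe siRNA #7 was the farther array from control.

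Another group of genes lower with siRNA #8 was high on the siRNA #7 array. *TP53I3*, a p53-induced quinone reductase, had relative intensities of 5.74 with control, 13.3 with siRNA #7 and 4.72 with siRNA #8, a log2 ratio of -1.497 (SD 0.16), and its other probe gave -1.33 (SD 0.17). *SCARNA16*, a small RNA of Cajal bodies, had 7.07, 13.7 and 5.04 on 1 probe and 5.002, 13.4 and 5.42 on the other, log2 ratios of -1.45 and -1.31 (SD 0.16 each). *PTP4A3*, a protein tyrosine phosphatase, had 0.619, 1.495 and 0.629, a log2 ratio of -1.25 (SD 0.32), and its other probe gave -1.26 (SD 0.32). In all 3 the siRNA #7 level lay farther from control than the siRNA #8 level on both probes. *RHOB*, a small GTPase, had 9.92, 17.1 and 7.33 on its brighter probe, a log2 ratio of -1.22 (SD 0.16), with -1.01 (SD 0.17) on the other, where siRNA #8 was the farther array from control.

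**Figure D2:**
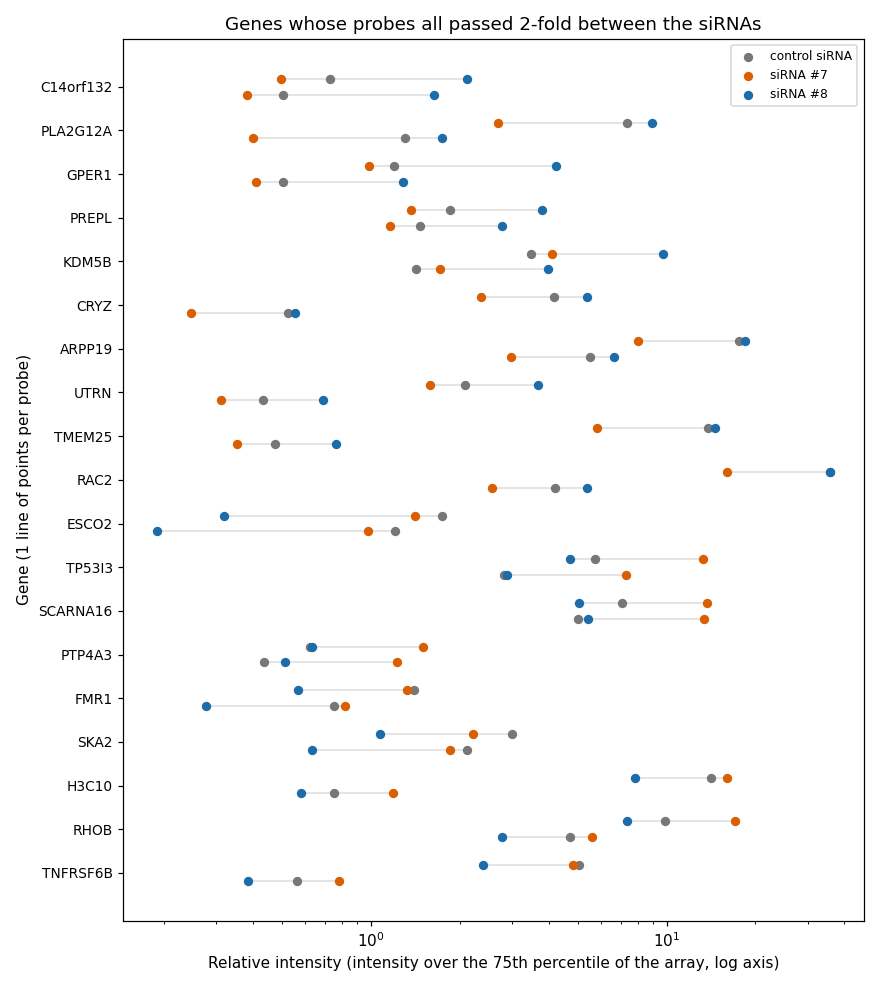
Relative intensity (horizontal log axis) of genes whose 2 or more probes all passed 2-fold, with 1 line of points per probe for control siRNA (gray), siRNA #7 (orange) and siRNA #8 (blue). The orange points stand alone at the low end for RAC2 and ARPP19 and at the high end for TP53I3, SCARNA16 and PTP4A3, and the blue points at the low end for ESCO2, FMR1 and SKA2.

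Probes printed 10 times show the spread of the spots themselves. Of the 600 kept, 6 were at least 2-fold higher with siRNA #8 (1%) and 18 were at least 2-fold lower (3%), and in all 24 the spots of both siRNA arrays did not overlap. The spots did not overlap for 222 of the 600 probes at any size of difference, so separation alone was common. *PMP22*, a membrane protein of myelin that is also found in epithelia, had relative intensities of 24.0 to 26.6 over the spots of the control array, 6.24 to 7.04 with siRNA #7 and 16.9 to 21.03 with siRNA #8. Its log2 ratio was 1.497 (SE over spots 0.04), and the siRNA #7 array stood apart from the other arrays. *HMOX1*, the heme oxygenase of the oxidative stress response, spanned 14.3 to 20.1, 9.82 to 11.2 and 21.6 to 24.5 in the same order, a log2 ratio of 1.14 (SE 0.03), with the control spots between those of the siRNAs. *ANXA9*, an annexin, spanned 0.436 to 0.535, 0.505 to 0.708 and 1.23 to 1.75, a log2 ratio of 1.35 (SE 0.07), with siRNA #8 alone high. *PRR15L* had a log2 ratio of 1.097 (SE 0.12) and was lowest with control siRNA, at a median of 0.217 against 1.07 and 2.12. *TMEM267* had a log2 ratio of 1.07 (SE 0.14) and was low with siRNA #7.

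In the other direction, *RAB5C*, a GTPase of early endosomes, spanned 2.72 to 3.62 with control siRNA, 2.85 to 3.36 with siRNA #7 and 0.734 to 1.03 with siRNA #8, a log2 ratio of -1.87 (SE 0.05). *DNAJC9*, a co-chaperone that binds histones, spanned 30.2 to 35.2, 33.2 to 39.05 and 11.6 to 16.1, a log2 ratio of -1.35 (SE 0.06). In *RAB5C* and *DNAJC9* the control and siRNA #7 spots overlapped while the siRNA #8 spots lay below both. *JDP2*, a repressor of AP-1 sites, spanned 6.17 to 7.69, 11.8 to 15.3 and 5.04 to 5.87, a log2 ratio of -1.38 (SE 0.04), and was high with siRNA #7. *HDDC2* had a log2 ratio of -1.85 (SE 0.11) on its 10 spots, whereas another, brighter *HDDC2* probe had 9.24 with siRNA #7 and 8.99 with siRNA #8, a ratio of -0.041. These *HDDC2* probes did not show the same difference.

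**Figure D3:**
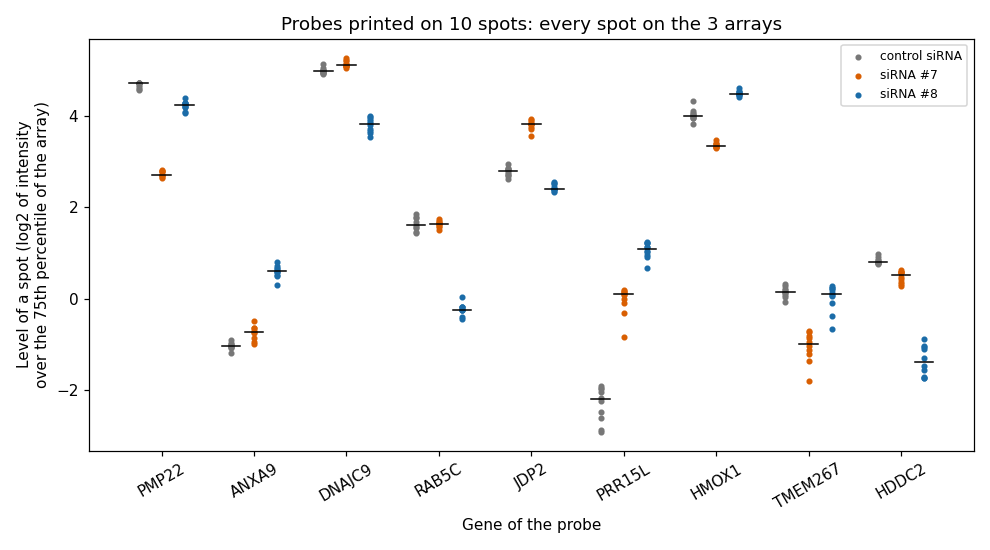
Level of every spot (log2 of intensity over the 75th percentile of the array, vertical axis) of named probes printed 10 times, on the control (gray), siRNA #7 (orange) and siRNA #8 (blue) arrays, with black bars at the medians. The orange and blue points do not overlap for any of these probes, with PMP22 low on the siRNA #7 array and RAB5C low on the siRNA #8 array.

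The lowest single ratios belonged to small RNAs of Cajal bodies, which guide the modification of spliceosomal RNAs. *SCARNA14* had relative intensities of 3.33 with control, 17.4 with siRNA #7 and 1.42 with siRNA #8, a log2 ratio of -3.62 (SD 0.20). *SCARNA8* had 1.16, 5.66 and 0.464, a log2 ratio of -3.61 (SD 0.30). *SCARNA11* had 0.551, 7.42 and 0.647, a log2 ratio of -3.52 (SD 0.30). In all 3 the siRNA #7 array was the high one, and each value rests on 1 spot. Since *SCARNA16* and these genes were all high with siRNA #7, the small RNA families were described as a whole, a choice made after their values were seen.

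Of 16 measured small Cajal body RNAs, 12 were lower and 4 higher with siRNA #8, against 51.2% of all named genes lower. Past 2-fold, 9 were lower (3.35% over all) and 1 was higher (2.28% over all), and the median log2 ratio was -1.15, against -0.012 over all named genes. *SCARNA18* had relative intensities of 2.62 with control, 10.4 with siRNA #7 and 1.68 with siRNA #8. *SCARNA22* had 29.7, 66.7 and 20.1 in that order. *SCARNA9* went the other way, with 9.41, 4.70 and 12.5, a log2 ratio of 1.42 (SD 0.15). *SCARNA14*, *SCARNA8*, *SCARNA11* and *SCARNA16*, which led to the choice of this family, are among the 9 genes at least 2-fold lower. The counts and the median are therefore no separate support for a shift of the family. The family was also not uniform. Set against the shared control array, its median was 1.16 with siRNA #7 and 0.10 with siRNA #8. A further 4 probes of the family were well above background with siRNA #7 alone and 0 with siRNA #8 alone. Over all gene probes these counts were 819 and 1000. *SCARNA23* was one of the 4, at least 14.5-fold higher with siRNA #7, the largest such bound of that direction.

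The H/ACA small nucleolar RNAs, which guide pseudouridylation of ribosomal RNA, were shifted the same way. Of 87 measured, 75 were lower and 12 higher with siRNA #8, 18 were at least 2-fold lower (3.35% over all named genes) and 1 was at least 2-fold higher (2.28% over all), and their median log2 ratio was -0.47. Their medians against control were 0.55 with siRNA #7 and 0.038 with siRNA #8. A further 6 of their probes were well above background with siRNA #7 alone and 1 with siRNA #8 alone. *SNORA79* had relative intensities of 0.666 with control, 4.304 with siRNA #7 and 0.381 with siRNA #8, the lowest ratio of the family at -3.50. *SNORA37* had 3.22, 0.756 and 3.26, the highest at 2.11, which was 1.21 after the median of neighboring spots was removed. The C/D small nucleolar RNAs, which guide ribose methylation, lay near all named genes. Of these, 49 of 84 were lower (58.3%, against 51.2% over all). At least 2-fold, 0 were lower (3.35% over all) and 1 was higher (*SNORD5*, 1.11, against 2.28% over all). Their median was -0.081, against -0.012 over all named genes. Against control, their medians were 0.33 with siRNA #7 and 0.32 with siRNA #8. Probes of the C/D family well above background on 1 siRNA array alone were 7 with siRNA #7 and 5 with siRNA #8. The host genes from whose introns such RNAs are cut had a median of -0.16, with 13 of 18 lower and none past 2-fold. *SNHG8* was their lowest at -0.74 (SD 0.15) and *SNHG3* their highest at 0.38 (SD 0.15). The measured probes of these 3 families are all on 1 spot, several H/ACA genes are near-identical copies whose probes may not separate them, and how well the labeling captured such short RNAs was not tested.

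Gene lists were described as lower or higher with siRNA #8 where the median was at least 0.2 in size and at least 70% of the measured members lay on that side. By this rule 8 of 32 lists were lower and 1 was higher. The direction of 4 of them (ERK output, immediate early, keratins and heat shock) was lost under some alternatives. The largest shift among protein-coding lists was that of the replication-dependent histones, which package newly made DNA in S phase. Of 44 measured, 39 were lower and 13 at least 2-fold lower, with a median of -0.68. Over all named genes 51.2% were lower, 3.35% at least 2-fold lower, and the median was -0.012. *H4C2* had relative intensities of 123 with control, 136 with siRNA #7 and 31.5 with siRNA #8, a log2 ratio of -2.11 (SD 0.15). *H4C8* had 6.45, 7.58 and 2.64, a log2 ratio of -1.52 (SD 0.17). *H3C7* had 27.6 with siRNA #7 and 11.4 with siRNA #8, and *H2BC14* had 13.8 and 5.61. The siRNA #8 array was the low one for *H4C2*, *H4C8* and *H3C7*, while *H2BC14* was high with siRNA #7 (4.72 with control siRNA). Histone genes are near-identical copies, so the value of a single member is uncertain. Over probes, 47 of 52 lay on the lower side.

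Genes of DNA replication and of mitosis were lower with siRNA #8 as well. All 36 measured replication genes were lower, 5 of them at least 2-fold, with a median of -0.43, where 51.2% of all named genes were lower and 3.35% at least 2-fold lower. *CDC45*, a part of the replicative helicase, had relative intensities of 29.8 with control, 28.2 with siRNA #7 and 11.9 with siRNA #8, a log2 ratio of -1.25 (SD 0.15). *CDT1*, which loads that helicase, had 52.7, 59.4 and 29.0, a log2 ratio of -1.03 (SD 0.15). *ORC1*, a subunit of the origin recognition complex, had 2.34, 2.07 and 1.01, a log2 ratio of -1.03 (SD 0.23). In these genes control and siRNA #7 were close and siRNA #8 was low. *GINS3*, another helicase subunit, had 13.96, 23.8 and 6.82, a log2 ratio of -1.80 (SD 0.16), which was -0.75 after the median of neighboring spots was removed. Of the probes of these genes, 43 of 44 lay on the lower side. Of 38 measured mitotic genes, 35 were lower and 5 at least 2-fold lower, with a median of -0.44, against the same shares over all genes. *TOP2A*, the topoisomerase of chromosome condensation, had 2.79, 2.74 and 1.18 on 10 spots, a log2 ratio of -1.22 (SD 0.07). *CCNA2*, cyclin A, had 8.38, 8.01 and 3.96 on 10 spots, a log2 ratio of -1.02 (SD 0.05). *NUF2*, of the kinetochore, had a ratio of -1.13 (SD 0.20) and *KIF2C*, a motor that removes tubulin from microtubule ends, one of -1.08 (SD 0.15). *TTK*, a kinase of the spindle checkpoint, was the highest member at 0.63.

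*CCND1*, cyclin D1, was lower too. It had relative intensities of 14.7 with control, 16.98 with siRNA #7 and 6.95 with siRNA #8 on 10 spots, a log2 ratio of -1.29 (SD 0.05). The list of G1 cyclins, kinases and inhibitors, *CCND1* included, did not meet the rule for a direction, with 12 of 18 lower and a median of -0.27. *CCND1* also belongs to the list of ERK output and feedback genes, of which 10 of 14 were lower, with a median of -0.26. Over all named genes 51.2% were lower. *DUSP5*, a phosphatase of ERK, had 6.54, 6.37 and 2.64, a log2 ratio of -1.27 (SD 0.17). *SPRED1*, an inhibitor of Ras signaling, went the other way with 1.55, 0.702 and 1.51, a log2 ratio of 1.11 (SD 0.31). *PHLDA1* had 3.24, 2.45 and 6.004, a log2 ratio of 1.29 (SD 0.17). The ERK list was therefore mixed, with 2 members past 2-fold in each direction, against 2.28% of all named genes higher and 3.35% lower. Of 13 immediate early genes 12 were lower (51.2% over all) with a median of -0.27, none past 2-fold. *FOSL1*, an AP-1 factor, was the lowest at -0.75 and *FOSL2* the highest at 0.18.

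Targets of ATF4, the transcription factor of the integrated stress response, were lower with siRNA #8 and high with siRNA #7. Of 19 measured, 17 were lower (51.2% over all named genes) and 4 at least 2-fold lower (3.35% over all), with a median of -0.47. *CHAC1*, a glutathione-degrading enzyme, had relative intensities of 2.89 with control, 11.6 with siRNA #7 and 2.61 with siRNA #8, a log2 ratio of -2.15 (SD 0.16). *ASNS*, asparagine synthetase, had 88.1, 180 and 56.5, a log2 ratio of -1.67 (SD 0.15). *PHGDH*, the first enzyme of serine synthesis, had 18.3, 43.4 and 20.4, a log2 ratio of -1.09 (SD 0.15). In all 3 the siRNA #7 array was the high one. *NUPR1*, a stress-induced chromatin protein, had 0.112, 1.35 and 0.315, a log2 ratio of -2.10 (SD 0.32). Of the 19 genes, 18 were well above background with control siRNA, and *NUPR1* had the lowest control value. Over the alternatives the *NUPR1* ratio fell to as little as 0.67 in size. *PSAT1*, the second enzyme of serine synthesis, went the other way, with 43.5, 25.01 and 47.5, a log2 ratio of 0.93 (SD 0.15). Each of the genes past 2-fold here has 1 probe on 1 spot. Of the cytosolic aminoacyl-tRNA synthetases, *CARS1* passed 2-fold, with 1.52, 2.25 and 0.942, while the list had no direction at a median of -0.10.

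The metallothionein and zinc transport list had a median of -0.56. Of its 11 genes, 9 were lower (51.2% over all named genes) and 2 at least 2-fold lower (3.35% over all). Over probes, 11 of 13 lay on the lower side, but the 1 probe on 10 spots did not. *MT1B* had relative intensities of 181 with control, 205 with siRNA #7 and 79.9 with siRNA #8, a log2 ratio of -1.36 (SD 0.15). *MT1X* had 99.5, 103 and 48.9, a log2 ratio of -1.08 (SD 0.15). *MT2A*, by contrast, had 498, 450 and 418, a ratio of -0.11. The siRNA #8 array was the low one for *MT1B* and *MT1X*. Metallothioneins, which bind zinc and copper, are a family of near-identical copies, so single members are uncertain. Keratins met the rule with 6 of 8 lower (51.2% over all) and a median of -0.20, close to the limit. At least 2-fold lower were 2 of them (3.35% over all). Their 11 probes were mixed, with 7 on the lower side. *KRT80* had a ratio of -1.82 (SD 0.32) on a dim probe and *KRT81* one of -1.01 (SD 0.16). The heat shock list was the 1 list higher with siRNA #8, with 15 of 20 genes higher (48.8% over all) and a median of 0.24. At least 2-fold, 1 was higher (2.28% over all) and 1 lower (3.35% over all). *DNAJA1*, a co-chaperone, had 29.7, 10.9 and 29.8, a log2 ratio of 1.45 (SD 0.15), which shrank to 0.38 once the median of neighboring spots was removed. *DNAJB4* had a ratio of -1.34 (SD 0.38) on a dim probe.

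**Figure D4:**
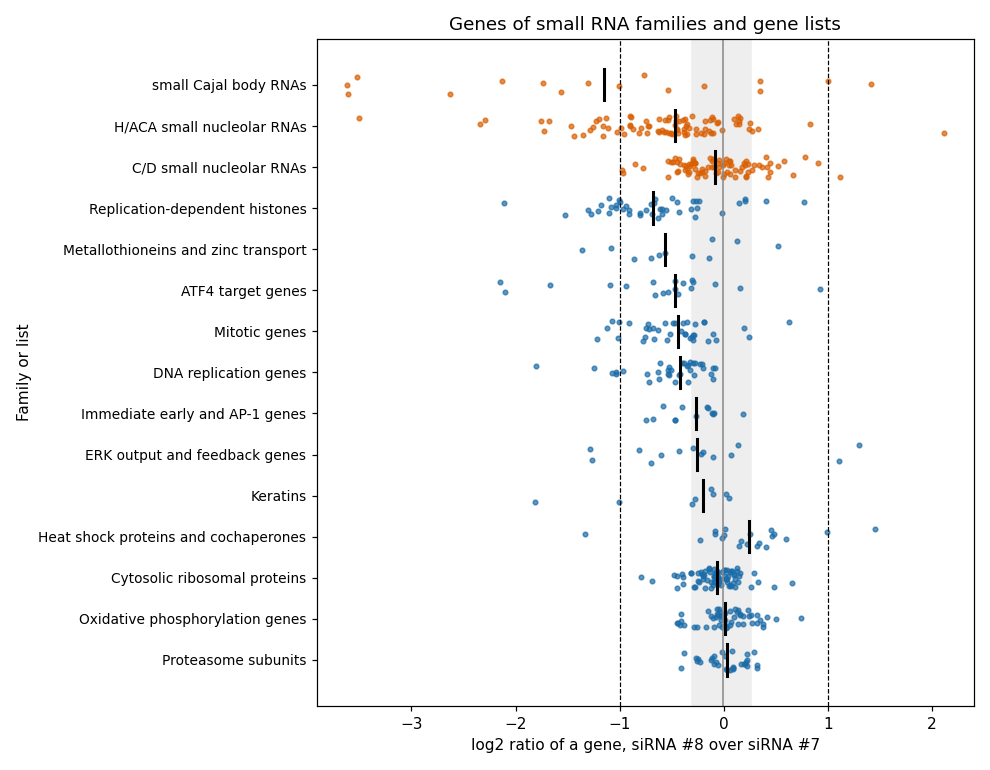
Log2 ratio of siRNA #8 over siRNA #7 (horizontal axis) of each measured gene in 3 small RNA families (orange), the 9 lists with a direction and 3 lists without one (blue), with black bars at the medians, dashed lines at 2-fold and the gray band at the middle 50% of all named genes. The histone, mitotic and replication genes lie mostly left of 0, with medians of -0.68, -0.44 and -0.43. On its brightest probe, no ribosomal protein, oxidative phosphorylation or proteasome gene reaches a dashed line.

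The lists with a direction differed in which array stood apart from control. Relative to the shared control array, the replication genes had a median of -0.11 with siRNA #7 and -0.61 with siRNA #8, the mitotic genes -0.09 and -0.59, the histones 0.01 and -0.52, and the metallothionein list 0.05 and -0.51. The ATF4 targets had 0.42 with siRNA #7 and -0.01 with siRNA #8. The heat shock list had -0.21 with siRNA #7 and -0.01 with siRNA #8. The first 4 lists were thus low with siRNA #8, while the ATF4 targets and the heat shock list stood apart with siRNA #7. The other 3 lists did not divide in this way. The ERK output list was low with both, at -0.21 with siRNA #7 and -0.42 with siRNA #8, the immediate early list lay on either side at 0.27 and -0.23, and the keratins did so at 0.14 and -0.13.

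**Figure D5:**
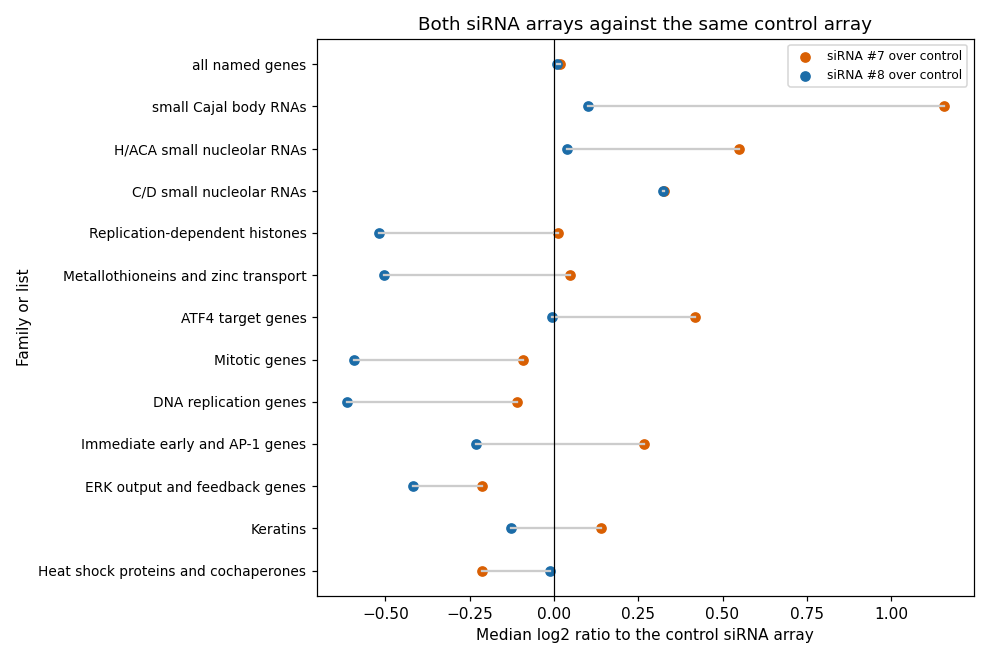
Median log2 ratio to the 1 control siRNA array (horizontal axis) of the named genes, the small RNA families and the lists with a direction, for siRNA #7 (orange) and siRNA #8 (blue). The blue points of the replication, mitotic, histone and metallothionein lists lie between -0.61 and -0.51 with the orange points near 0, whereas the orange points of the small Cajal body RNAs, the H/ACA RNAs and the ATF4 targets lie at 1.16, 0.55 and 0.42.

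Promoters are shown for some of these lists because their members lay on the same side together. The 250 bases before each start in RefSeq (GRCh38.p14) were searched on both strands for short motifs, chosen after the values of the lists were seen. TTTNNCGC, a motif of E2F factors, was present for 15 of 32 replication genes with a promoter (46.9%), against 5.93% of all 27305 promoters. TTTGAA, a form of the cell cycle homology element, was present for 16 of 31 mitotic genes (51.6%), against 13.6% of all. TGATGNAA, a motif of ATF4 with CEBP factors, was present for 3 of 15 ATF4 targets (20%), against 3.19%. TGCNCNC, a looser string than the metal response element, was present for 4 of 6 genes of the metallothionein list, against 48.4% of all promoters. A string this common does not mark that element. GAANNTTC, of heat shock factors, was present for 6 of 19 heat shock genes (31.6%), against 5.85%. GAANNTTC reads the same on both strands, and a TTTGAA match can share letters with it. These matches are descriptions of the letters, and binding was not measured. A list such as the ATF4 targets can hold more of the motif by its definition, whatever the arrays show. The shares therefore do not bear on the difference between the siRNAs. Windows around a match are printed for 4 genes past 2-fold, with the match in capitals.

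*CDT1*, chr16:88803568-88803591, plus strand: cggagaccGCGCTAAAgtcccacg

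*TOP2A*, chr17:40418077-40418098, minus strand: tggtgcctTTTGAAgcctctct

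*CHAC1*, chr15:40953254-40953277, plus strand: ccctgccgTTGCATCActcctgcc

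*ASNS*, chr7:97872461-97872484, minus strand: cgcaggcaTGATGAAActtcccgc

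The match lies on the reverse strand of the promoter for *CDT1* and *CHAC1* and on the forward strand for *TOP2A* and *ASNS*.

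Large groups of housekeeping genes showed no direction. On its brightest probe, no member passed 2-fold among 78 cytosolic ribosomal proteins (median -0.07), 53 oxidative phosphorylation genes (0.01) or 31 proteasome subunits (0.03). Dimmer probes of *RPS28* (1.03), *RPL31* (1.07) and *RPS27* (-1.11) did. The lowest ribosomal protein gene was *RPL14* at -0.80, and the extremes of the other groups were *UQCRFS1* at -0.45 and *NDUFB3* at 0.74, and *PSMD1* at -0.42 and *PSMD8* at 0.32. The RNA interference machinery, on which both siRNAs depend, had a median of 0.04 with 7 of 14 genes on each side. *TNRC6B*, a partner of Argonaute proteins, was its highest member at 0.89 (SD 0.17) and *AGO4*, an Argonaute, its lowest at -0.65 (SD 0.38). Interferon and RNA-sensing genes, a known response to transfected RNA, had a median of -0.03 over 18 genes. *IFIT2* had 0.523 with control, 0.372 with siRNA #7 and 1.02 with siRNA #8, a log2 ratio of 1.46 (SD 0.31), and *IFI35* had 1.81, 2.76 and 0.960, a log2 ratio of -1.52 (SD 0.20). These interferon-stimulated genes thus lay on opposite sides.

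The receptor for EGF, its relatives and the HOX genes differed in single members. On its kept probe *EGFR* had relative intensities of 0.664 with control, 0.973 with siRNA #7 and 0.775 with siRNA #8, a log2 ratio of -0.33 with an SD of 0.32. Other *EGFR* probes failed the background filter, and their dim values lay the other way, at 1.04 and 1.39 (SD 0.38 each). The 7 measured genes of the EGFR family had a median of 0.01. *AREG*, the ligand amphiregulin, was the lowest at -0.84 (SD 0.15) on its brightest probe, with -2.42 on its other, and *HBEGF*, another ligand, was the highest at 0.36 (SD 0.38). Of 22 measured HOX genes 13 were lower and 9 higher (51.2% and 48.8% over all named genes), with a median of -0.11. *HOXB13* had 4.43, 3.95 and 8.99, a log2 ratio of 1.19 (SD 0.16). *HOXC13* had 0.850, 1.09 and 0.505, a log2 ratio of -1.11 (SD 0.32), and *HOXC6* had 2.98, 4.55 and 2.24, a log2 ratio of -1.02 (SD 0.17). The other measured *HOXA* genes lay within 2-fold.

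The 23 lists without a direction had medians between -0.27 and 0.18, and in several of them single members passed 2-fold. *ID3*, an inhibitor of helix-loop-helix factors and a BMP target, had relative intensities of 23.6 with control, 16.5 with siRNA #7 and 47.9 with siRNA #8, a log2 ratio of 1.53 (SD 0.15). *CTNNA1*, alpha-catenin of adherens junctions, had 31.4, 12.0012 and 33.7 on its brightest probe, a log2 ratio of 1.49 (SD 0.15), with 0.50 on its other. *ITGB4*, an integrin of hemidesmosomes, had 39.0, 49.2 and 17.1, a log2 ratio of -1.53 (SD 0.15). The first was high and the last low with siRNA #8, while *CTNNA1* was low with siRNA #7. *MVD*, an enzyme of cholesterol synthesis, had 6.36, 1.94 and 5.42, a log2 ratio of 1.48 (SD 0.20) that shrank to 0.66 after removal of the neighbors' median. *FADS1*, a fatty acid desaturase, had a ratio of -1.36 (SD 0.16). Among NRF2 targets, *NQO1* (-1.60, SD 0.32) and *TXNRD1* (-1.21, SD 0.20) were lower with siRNA #8 and *HMOX1* was higher. Among p53 targets, *PLK2* was lower at -1.14 (SD 0.17), as was *TP53I3* above, and *BTG2* was higher, with 10.5, 11.7 and 24.8, a log2 ratio of 1.09 (SD 0.15). Among YAP and TEAD targets, *ASAP1* was higher at 1.78 (SD 0.31) on a dim probe, and *CCN1*, a matricellular protein, was lower at -1.08 (SD 0.17) with *NT5E*, an ectonucleotidase, at -1.04 (SD 0.32). *CRELD1*, of the unfolded protein response list, stood at -1.08 (SD 0.20), and *CXCL2*, a chemokine of the NF-kB list, at -1.02 (SD 0.38) on a dim probe, with -0.34 on its other. None of 27 glycolysis and hypoxia genes passed 2-fold on its brightest probe, though the dimmer *VEGFA* probe gave -1.03. *ADM*, the peptide adrenomedullin, was the lowest at -0.88 and *HK1*, a hexokinase, the highest at 0.78. Of 29 apoptosis genes 21 were lower (51.2% over all named genes), at a median of -0.16, with *PMAIP1* the lowest at -0.99.

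Some probes were well above background on 1 siRNA array alone, 819 with siRNA #7 and 1000 with siRNA #8, and their ratios are bounds against the lowest signal well above background on the other array. The bound passed 2-fold for 160 and 164 of them. After *SCARNA23*, the largest bounds with siRNA #7 higher were those of *PDE4DIP*, a scaffold protein of the centrosome, at least 12.4-fold, and of *LINC01586*, at least 9.55-fold. With siRNA #8 higher, they were those of *FAM174A*, at least 8.84-fold, *UBXN2B*, at least 6.96-fold, and *EOLA2-DT*, at least 6.40-fold. *FAM174A* and *UBXN2B* were well above background with control siRNA, at relative intensities of 1.01 and 0.943, while *PDE4DIP*, *LINC01586* and *EOLA2-DT* were not. The highest ratios of single kept probes were those of *PRR36* at 3.92, *GOLGB1*, a Golgi protein, at 2.78 and *STMP1*, a mitochondrial micropeptide, at 2.76. Another *PRR36* probe gave 0.35, and the neighboring spots of the *GOLGB1* probe had a median ratio of 0.98 themselves.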

How the data were processed

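RNA levels of the control siRNA, siRNA #7 and siRNA #8 cultures were measured on 1 Agilent SurePrint G3 array each. The authors scanned the arrays with Agilent Feature Extraction 11.5.1.1, and the deposited intensity of a spot is its signal after background subtraction, unscaled between arrays. The authors also deposited a log2 table of 21189 probes, used as an alternative, in which every column has a median of 0. The log2 differences between the siRNAs in it had a slope of 1.00 to those of the intensities. The deposited names number the siRNAs in another way than the sample labels, which were followed.

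Outlier spots were dropped (413 with siRNA #7, 313 with siRNA #8), the remaining spots of each probe averaged, and the 75th percentile of each array was subtracted on the log2 scale in Python 3.11.15 (numpy 2.4.6, pandas 2.3.3). A kept probe was well above background on at least 50% of its spots on both siRNA arrays. Of the kept probes 15505 had a symbol, by RefSeq accession (GRCh38.p14), and a gene was read from its brightest kept probe. Of 826 genes in the lists, 710 were measured. No test was run. A difference called past 2-fold describes these arrays only. The steps were tested on simulated data.

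Named genes are those with 2 or more probes all past 2-fold (the 10 highest and the 10 lowest), probes on 10 spots (5 and 5), up to 4 members a list, *HOXA5*, *EGFR* and *HOX* genes past 2-fold, the 3 largest bounds each way and the 3 highest and 3 lowest single probes. *PSAT1*, *MT2A*, *TTK* and the small RNAs beyond that rule were named after their values were seen. Some genes that this rule names are not reported here. The members, lists and motifs were chosen with earlier results of these data known. The alternatives were other scalings, quantile normalization, normexp (limma 3.58.1, R 4.3.3, offset 50, on median signals because the files hold no mean signal), the deposited log2 table, array position, filters on dim probes, outlier spots, the mean of probes and a threshold of 1.5-fold. Sites for the siRNA seeds were not analysed here.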

Additional observations from a re-analysis of the deposited data

How the results depend on the processing

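No paired analysis was possible because the siRNA groups hold 1 array each. The counts past 2-fold depended on the background correction and the signal more than on the scaling between these arrays. With normexp, 95 probes were at least 2-fold higher with siRNA #8 and 140 lower, 0 and 2 genes had all of their probes past 2-fold, and 2 and 6 probes on 10 spots passed. With the brighter 50% of the probes these counts were 130 and 224, 3 and 5, and 3 and 11. At 1.5-fold they were 1681 and 2023, 66 and 99, and 39 and 60. Scaling on the spike-in probes raised every ratio by 0.096 and gave 6 genes with all probes at least 2-fold lower, and 10 and 11 probes on 10 spots. With the median of each array, and with quantile normalization, 8 genes had all probes at least 2-fold lower. The metallothionein list had a median of -0.28 with normexp and -0.36 after removal of the neighbors' median. In the brighter 50% of the probes the ERK output list had -0.60 and the immediate early list -0.47. The cause of these shifts was not tested. The replication, mitotic, histone, ATF4 and metallothionein lists kept their direction in all 10 alternatives that change a ratio. The keratins lost it in 6 (median -0.23 to -0.10 over all settings), the ERK output list in 3 (-0.60 to -0.16), the heat shock list in 3 (0.18 to 0.33) and the immediate early list in 2 (-0.47 to -0.14), with no change of sign. The medians ran from -0.51 to -0.33 for replication genes, -0.49 to -0.34 for mitotic genes, -0.70 to -0.57 for histones and -0.51 to -0.37 for ATF4 targets. The median of the small Cajal body RNAs, a family chosen after seeing the data, lay between -1.56 and -0.93 and that of the H/ACA RNAs between -0.50 and -0.29, while that of the C/D RNAs crossed 0 (-0.12 to 0.015). Of 93 genes named by rule past 2-fold, 55 lay below it with normexp, among them *ESCO2*, *FMR1*, *PTP4A3*, *SKA2*, *C14orf132*, *CRYZ*, *UTRN* and *GOLGB1*. Its offset of 50 exceeds the 75th percentile intensity of both siRNA arrays (42.1 and 42.8), so ratios of dim probes must shrink with it. Ratios of dim probes are limited by their signal over background, which these normexp counts do not measure. No called value changed sign, while the medians of several lists without a direction crossed 0, most often with scaling on the spike-in probes.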
